A study of Mus musculus with 9 samples.

Results

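The collecting duct principal cell genes are 10 genes known to be used together by the cell type that adjusts water and sodium in the last stretch of the kidney tubule. They are the water channels Aqp2, Aqp3 and Aqp4, the vasopressin receptor Avpr2, the sodium channel subunits Scnn1a, Scnn1b and Scnn1g, the ion pump regulator Fxyd4, the transcription factor Gata3 and the steroid enzyme Hsd11b2. They were chosen by name, and every spot of the array design that carried one of these names and was no control spot was taken. This gave 13 probes, 3 for Aqp4, 2 for Scnn1a and 1 for each of the other 8 genes, out of 41174 probes on the array. All 10 genes passed the filter on dim probes, among 20923 genes measured.

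The series compared mice homozygous for the Glis3zf allele of the zinc finger transcription factor Glis3 with wild-type (WT) mice, all of the C57BL/6 strain. The values below come from postnatal day 3 (PND3), with 1 RNA pool per genotype, each from 2 pups, of which 500 ng of total RNA was amplified and labelled. The mutant and the WT pool shared each of 2 Agilent 2-colour arrays. On the first, called the mutant-Cy3 array here, mutant RNA carried Cy3 and WT RNA Cy5, and on the second, the mutant-Cy5 array, the dyes were exchanged. With a single pool per genotype no test was possible, and any spread given is that between the arrays, not between animals. The labels used here give neither the sex of the pups nor the sequence change of the zf allele. The 7 arrays from embryonic day 15.5 (E15.5) carry probe set identifiers that were not paired with gene names here, and were not used.

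In the adult kidney, principal cells take up water when vasopressin binds its receptor on the blood side of the cell. The receptor raises cyclic AMP, which brings Aqp2 to the urine side, and the water leaves through Aqp3 and Aqp4 on the blood side. Sodium enters through the epithelial sodium channel, made of alpha, beta and gamma subunits, under control of aldosterone, and Hsd11b2 inactivates glucocorticoids that would otherwise occupy the aldosterone receptor. Gata3 is a transcription factor of the duct lineage from its earliest stage in the embryo.

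The RNA was labelled as pancreas, and the brightness of these kidney genes has to be read beside that label. The scanner software's processed signals (background-subtracted and dye-normalized, in scanner units) averaged between 343 and 21439 over the 10 genes in mutant RNA, against between 591 and 21686 in WT RNA. Of the 10, 8 exceeded 1000 in both pools, while the median probe of the array stood at 123 in mutant RNA, against 121 in WT RNA. Of 8 pancreas acinar enzyme genes 6 were measured, and their median signal was 86.5 in mutant RNA, against 80.9 in WT RNA, with the highest at 693 in mutant RNA, against 640.5 in WT RNA. Of 7 islet genes, 4 were not measured, Ins1, Gcg, Ppy and Mafa, and the brightest of the others, Ins2, stood at 89.1 in mutant RNA, against 88.9 in WT RNA. None of the 9 pancreas genes measured reached 1000, while 8 of 9 proximal tubule genes of the kidney did in both pools. The ninth, Slc34a1, was read by a dim probe because its bright probe was an outlier spot on 1 array. The defining pancreas markers were therefore dim or not measured in both pools, so the tissue label is in doubt and the tissue of these pools is not settled here.

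Glis3 itself was dim. Its probe gave 3.88 and 3.39 in mutant RNA, against 22.1 and 21.5 in WT RNA, well above background on both arrays in WT and on neither in the mutant. Whether that probe lies in the part of the gene changed in the mutant is not known here, so it does not check the genotype.

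After loess normalization, which removes a trend of the ratio with brightness, 7 of the 10 principal cell genes were higher in the mutant pool on both arrays, none by as much as 2-fold, while with median centring the signs of the mean ratios of Scnn1a, Scnn1b and Fxyd4 turned. Aqp2, Aqp4, Avpr2, Gata3 and Scnn1g were at least 1.2-fold higher on both arrays after loess (Avpr2 alone with median centring). Hsd11b2 was at least 1.2-fold lower on both arrays. Aqp3, Scnn1a, Scnn1b and Fxyd4 lay within 1.2-fold on both arrays after loess. Over all genes measured, 3.21% were at least 1.2-fold higher on both arrays and 4.55% at least 1.2-fold lower, against 5 and 1 of the 10 principal cell genes. At the 2-fold limit the array held 0.0335% of genes higher and 0.158% lower, and 0 of the 10. Among the 8501 genes with a signal above 1000 in both pools on both arrays, a level taken after the data were seen, 3.55% were at least 1.2-fold higher and 3.31% at least 1.2-fold lower, against 4 and 0 of the 8 principal cell genes among them. Every reading of the 13 probes, in either pool and on either array, was well above background. The median log2 ratio of mutant over WT was 0.29 over the 10 genes, 0.27 on the mutant-Cy3 array and 0.26 on the mutant-Cy5 array, where the median of all genes was -0.01. In RNA of a whole tissue, more cells of a type and more RNA per cell cannot be told apart.

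**Figure D1:**
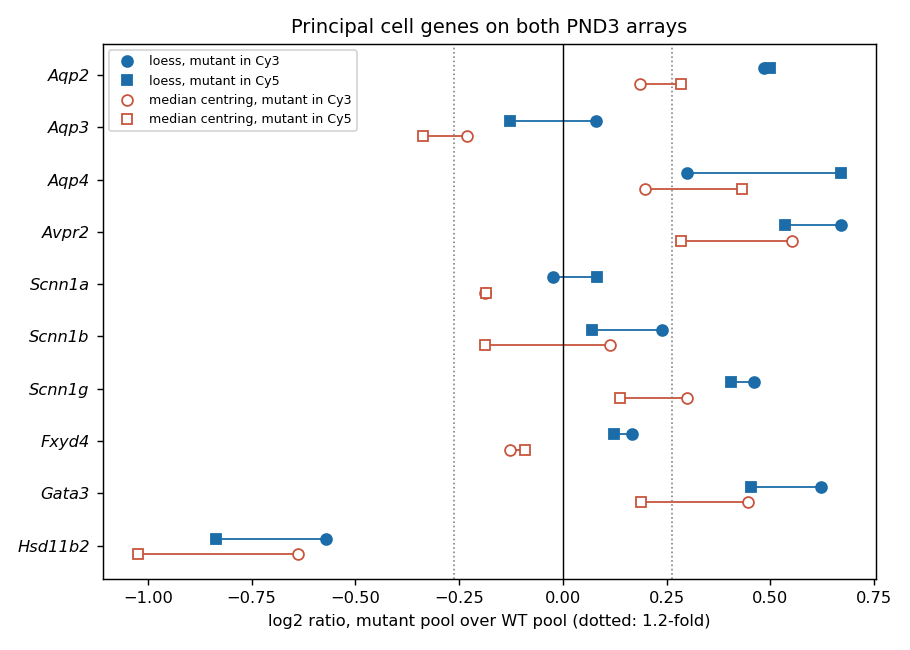
Log2 ratio of mutant over WT for each principal cell gene on the mutant-Cy3 (circles) and mutant-Cy5 array (squares), after loess (filled) and after median centring (open), with dotted lines at 1.2-fold. After loess Aqp2, Aqp4, Avpr2, Scnn1g and Gata3 lie right of the upper dotted line on both arrays and Hsd11b2 left of the lower one, and after median centring all 10 genes lie further left.

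Promoter sequences were available for 7 of the 10 genes. The 4 printed here belong to genes that were higher in the mutant pool, and are shown because a shared sequence element would be a first thing to look for in genes that move together. They are the 250 bases before the start of transcription, 5′ to 3′ on the gene's strand, from RefSeq (GRCm38.p6). Capitals mark the binding motif of GATA factors such as Gata3, spelled as AGATA or as TGATA with either A or G as the next base, and searched on both strands.
Aqp2, chr15:99578806-99579055, + strand: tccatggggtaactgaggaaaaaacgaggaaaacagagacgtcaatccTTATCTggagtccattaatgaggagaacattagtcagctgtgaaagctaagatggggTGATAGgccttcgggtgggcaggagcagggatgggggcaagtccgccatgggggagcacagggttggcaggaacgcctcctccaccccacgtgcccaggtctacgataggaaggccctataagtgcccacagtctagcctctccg
Avpr2, chrX:73891852-73892101, + strand: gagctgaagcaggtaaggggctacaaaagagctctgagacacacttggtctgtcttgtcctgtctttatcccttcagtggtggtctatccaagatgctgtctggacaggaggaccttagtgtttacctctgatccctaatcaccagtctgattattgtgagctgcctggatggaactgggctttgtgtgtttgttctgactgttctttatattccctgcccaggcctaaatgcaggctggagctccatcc
Scnn1g, chr7:121734229-121734478, + strand: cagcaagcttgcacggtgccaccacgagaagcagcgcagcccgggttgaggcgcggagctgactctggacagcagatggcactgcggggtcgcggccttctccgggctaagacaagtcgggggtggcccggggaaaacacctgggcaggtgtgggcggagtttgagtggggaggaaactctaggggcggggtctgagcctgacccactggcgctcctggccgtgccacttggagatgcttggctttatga
Gata3, chr2:9878601-9878850, - strand: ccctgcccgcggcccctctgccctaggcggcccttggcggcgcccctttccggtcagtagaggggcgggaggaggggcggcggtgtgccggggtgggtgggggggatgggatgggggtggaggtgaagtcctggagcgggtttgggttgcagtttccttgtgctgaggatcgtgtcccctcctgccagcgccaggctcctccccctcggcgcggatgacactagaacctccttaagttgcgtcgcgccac

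The Aqp2 promoter held 2 GATA matches, one starting 145 bases before the start on the gene's strand and one starting 202 bases before it on the opposite strand. No match was found in the promoters of Avpr2, Scnn1g and Gata3, nor in those of Aqp3, Scnn1b and Fxyd4. A GATA match was present in 26.5% of all 32851 promoters of this length in the table, against 1 of these 7. The core of the Glis binding site, TGGGGGGT, was in none of the 7 promoters and in 1.36% of all. The full cyclic AMP response element, TGACGTCA, was likewise in none of the 7 and in 1.55% of all. Its core, TGACG, which every full element also contains, was in the Aqp2 promoter and in 17.8% of all. The full palindromic site of steroid hormone receptors was in none of the 7 and in 0.00913% of all. These matches describe the letters of 250 bases and do not show binding. Entries for Aqp4, Scnn1a and Hsd11b2 were not used here.

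Avpr2, the receptor through which vasopressin acts on the duct, had the highest mean ratio of the 10 genes, although on the mutant-Cy5 array the brightest Aqp4 probe was higher. Its probe gave 2259.8 and 1955 in mutant RNA, against 1428 and 1309 in WT RNA, on the mutant-Cy3 and the mutant-Cy5 array in that order, which is kept below. Both mutant values lay above both WT values. The log2 ratio was 0.67 and 0.54 on the 2 arrays, a mean of 0.60 ± 0.09 (SD between arrays), or 1.52-fold. Of all genes measured, 99.7% had a lower mean ratio.

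The 3 water channels did not move alike. Aqp2, the vasopressin-regulated channel of the urine side, gave 20292 and 18569 in mutant RNA, against 14632 and 13029 in WT RNA. The pools did not overlap, and the arrays gave nearly the same log2 ratio, 0.48 and 0.50, a mean of 0.49 ± 0.01 (SD between arrays) or 1.41-fold. Aqp3, a channel of the blood side that also carries glycerol, gave 23006 and 19872 in mutant RNA, against 22152 and 21219 in WT RNA. Here the pools overlapped, and the log2 ratio was 0.08 on one array and -0.13 on the other, a mean of -0.02 ± 0.15 (SD between arrays). On the same array the log2 ratio of Aqp2 exceeded that of Aqp3 by 0.40 and 0.63, a mean of 0.52 ± 0.16 (SD between arrays). With median centring that difference was likewise 0.52.

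Aqp4, the other channel of the blood side, was read by 3 probes of 60 bases that shared no run longer than 8 bases, so they report on different stretches of the transcript. The brightest gave 1343 and 1398 in mutant RNA, against 1024 and 889.5 in WT RNA. Another gave 858 and 772 against 633 and 572, and the dimmest 682 and 656 against 511 and 418. In each of the 3 probes both mutant values lay above both WT values. Mean log2 ratios were 0.48 ± 0.26, 0.39 ± 0.09 and 0.46 ± 0.14 (SD between arrays), between 1.31-fold and 1.40-fold. The brightest probe differed most between the arrays, at 0.30 and 0.67. All 3 probes were at least 1.2-fold higher on both arrays.

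The subunits of the epithelial sodium channel also differed among themselves. Scnn1g, the gamma subunit, gave 5422 and 4539.7 in mutant RNA, against 3792 and 3543 in WT RNA, without overlap. Its log2 ratio was 0.46 and 0.40, a mean of 0.43 ± 0.04 (SD between arrays) or 1.35-fold, and 98.8% of genes had a lower one. Scnn1b, the beta subunit, gave 2717 and 2306 in mutant RNA, against 2388 and 2161 in WT RNA, with log2 ratios of 0.24 and 0.07. Its mutant value lay above the WT value on each array, and the pools overlapped only between arrays. Neither array reached 1.2-fold. Scnn1a, the alpha subunit without which the channel carries little current, gave 4366 and 3858 in mutant RNA, against 4277 and 3753 in WT RNA. Its pools likewise overlapped between arrays, and the log2 ratios were -0.02 and 0.08. A much dimmer Scnn1a probe, at 29.5 and 23.0 in mutant RNA, against 24.0 and 21.3 in WT RNA, had log2 ratios of 0.16 and 0.11. Neither Scnn1a probe reached 1.2-fold. On the same array the log2 ratio of Scnn1g exceeded that of Scnn1a by 0.48 and 0.32, and that of Scnn1b by 0.22 and 0.33.

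Fxyd4, a small protein that modifies the sodium pump, gave 21276 and 19273 in mutant RNA, against 19073 and 17835 in WT RNA. The mutant values lay just above the WT values, and log2 ratios of 0.17 and 0.12 left it under 1.2-fold on both arrays. Gata3 gave 7707 and 6845 in mutant RNA, against 5097 and 4944 in WT RNA, without overlap. Its log2 ratio was 0.62 and 0.45, a mean of 0.54 ± 0.12 (SD between arrays) or 1.45-fold.

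Hsd11b2, the enzyme that guards the aldosterone receptor, went the other way. Its probe gave 383 and 303 in mutant RNA, against 609 and 572 in WT RNA, well above background in all 4 readings. Both mutant values lay below both WT values, and the log2 ratio was -0.57 and -0.84, a mean of -0.70 ± 0.19 (SD between arrays), or 0.614 of the WT level. Of all genes measured, 0.492% had a lower mean ratio. On the same array the log2 ratio of Avpr2 exceeded that of Hsd11b2 by 1.24 and 1.37.

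**Figure D2:**
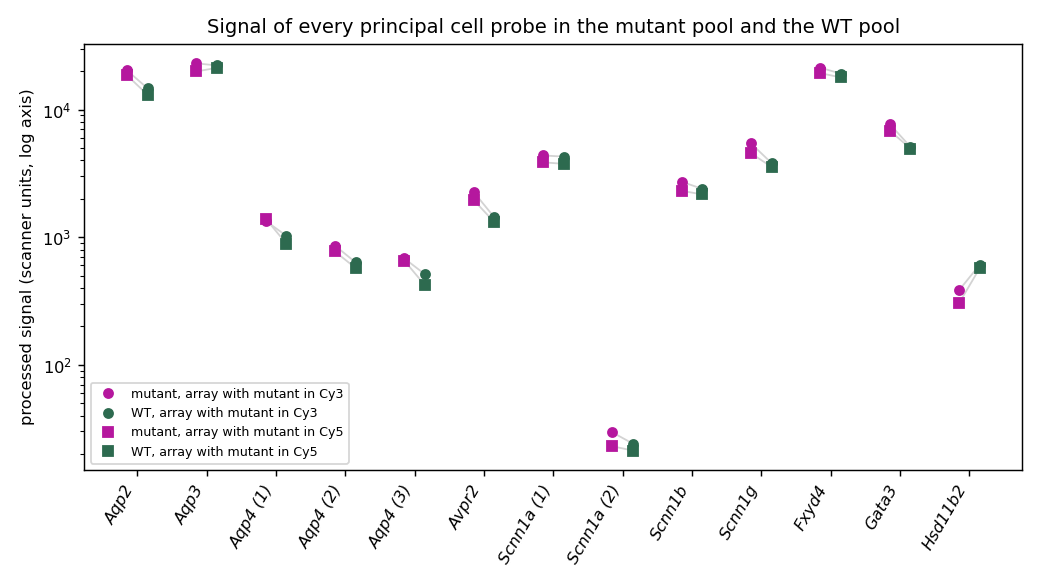
Processed signal, in scanner units on a log axis, of each of the 13 probes in the mutant pool (left of each pair) and the WT pool (right), with circles for the mutant-Cy3 array, squares for the mutant-Cy5 array, and a line joining values of the same array. In Aqp2, Avpr2, Scnn1g, Gata3, Fxyd4 and all 3 Aqp4 probes both mutant values lie above both WT values, and in Hsd11b2 both lie below.

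Taking the brightest probe of each gene, the mutant values both exceeded the WT values in 6 genes, lay below them in 1 and overlapped them in 3. Overlap here sets readings of different arrays beside each other, and these are repeats of 1 pool per genotype. The share of all genes with such a separation was not computed, so nothing is read from these counts. Above 0 on both arrays were 7 of the 10 genes, where 30.9% of all genes were, and below 0 on both arrays was 1, where 37.9% of all genes were. Across all genes the ratios of the 2 arrays correlated at 0.682 and the median SD between arrays was 0.07 log2 units. That spread is technical and says nothing about differences between pups.

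The way each array was normalized changed the values. Loess removes a trend of the ratio with brightness within each array, whereas median centring subtracts 1 value per array. With median centring the median of all genes measured lay at -0.11, and 1.02% of genes were at least 1.2-fold higher on both arrays and 15.1% at least 1.2-fold lower. Of the 10 principal cell genes, Avpr2 alone was then at least 1.2-fold higher on both arrays, at a mean log2 ratio of 0.42. Gata3, Aqp4, Aqp2 and Scnn1g kept positive ratios on both arrays, with means of 0.32, 0.31, 0.24 and 0.22, and each fell under 1.2-fold on 1 array. The means of Aqp3, Scnn1a, Fxyd4 and Scnn1b were -0.28, -0.19, -0.11 and -0.04, so the signs of Scnn1a, Fxyd4 and Scnn1b turned. Hsd11b2 stood at -0.83 and was again at least 1.2-fold lower on both arrays. The median of the 10 was 0.09, or 0.20 above that of all genes, against 0.31 above it after loess.

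Median centring left the ratio falling with brightness over all genes, and most principal cell genes are bright. In the dimmest decile of genes the median log2 ratio of mutant over WT was 0.10 with median centring, and in the brightest decile, which holds Aqp2, Aqp3 and Fxyd4, it was -0.27. After loess the same medians were -0.02 and -0.01. With median centring the ratio of mutant over WT fell with brightness on both arrays, although the dyes were exchanged. From the dimmest to the brightest decile the median went from 0.03 to -0.31 on the mutant-Cy3 array. On the mutant-Cy5 array it went from 0.17 to -0.21. Whether loess removed a difference between the pools along with any dye effect was not tested. Set against the median of its own decile, the median-centred log2 ratio of Avpr2 was higher by 0.60, of Gata3 by 0.55, of Aqp2 by 0.51, of Aqp4 by 0.50 and of Scnn1g by 0.45. Fxyd4 and Scnn1b were each 0.16 above their decile, Scnn1a was 0.04 above, Aqp3 lay -0.01 from it and Hsd11b2 -0.69. Subtracting a decile median removes the trend with brightness much as loess does. Values near those of loess were therefore built in, and they are no separate support for them. With the scanner software's own ratios, which use another dye normalization, 6.59% of all genes were at least 1.2-fold higher on both arrays and 8.36% at least 1.2-fold lower, and the same 5 principal cell genes and Hsd11b2 passed.

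**Figure D3:**
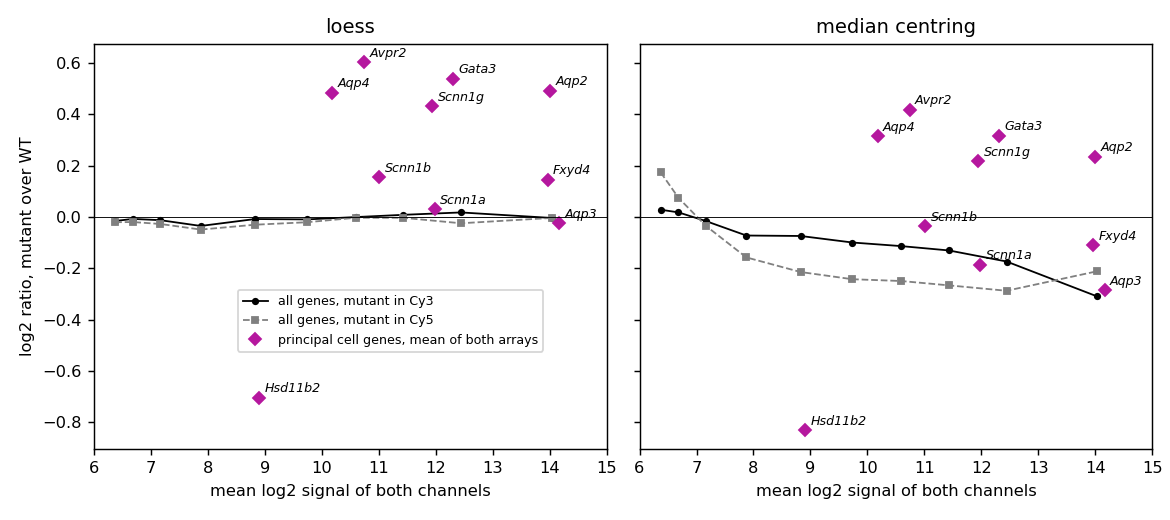
Log2 ratio of mutant over WT against the mean log2 signal of both channels, after loess (left) and median centring (right). Lines join the medians of brightness deciles of all genes on each array, and diamonds are the principal cell genes. With median centring the mutant-Cy3 line falls to -0.31 in the brightest decile, the mutant-Cy5 line is lowest at -0.29 in the decile before it, and Aqp2, Aqp4, Avpr2, Scnn1g and Gata3 lie above them in both panels.

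Genes of hormone signalling, sodium transport and the duct lineage are set here beside the shares over all genes, 3.21% higher and 4.55% lower. The lists also hold genes of other tubule segments, and with lists this short nothing is read from the counts. Of 20 genes of vasopressin signalling and water channel trafficking, 1 was at least 1.2-fold higher on both arrays and 0 lower, with a median log2 ratio of -0.02. The one higher was Prkar2a, a regulatory subunit of protein kinase A, at 0.31 on each array. Adcy6, an adenylate cyclase that makes cyclic AMP in the duct, had log2 ratios of 0.51 and 0.19, and Ptger4, a prostaglandin receptor, -0.46 and -0.14. Of 21 genes of the aldosterone response and sodium transport, 1 was higher and 1 lower, with a median of 0.03. Prss8, a protease that activates the sodium channel, stood at 0.34 and 0.30. Fxyd2, the sodium pump regulator of other tubule segments, stood at -0.34 and -0.36. Of 12 duct transcription factors, Elf5 alone was at least 1.2-fold higher on both arrays, at 0.57 and 0.33, and 0 were lower. Emx2 stood at -0.24 and -0.41 and Elf3 at 0.22 and 0.20.

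Among 21 measured paralogs of the 10 genes, 1 was higher and 1 lower, with a median log2 ratio of -0.03. The higher one was Aqp5, a water channel of glands, at 0.99 and 0.79, with signals of 755 in mutant RNA, against 376 in WT RNA, and the lower one was Fxyd2. Fxyd1 stood at -0.53 and -0.22.

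Intercalated cells are the acid-base cells that lie between principal cells in the duct. Of 14 of their genes, 0 were at least 1.2-fold higher on both arrays and 6 at least 1.2-fold lower. Over all genes the shares were 3.21% and 4.55%. The list's median log2 ratio was -0.20, with -0.17 on the mutant-Cy3 and -0.24 on the mutant-Cy5 array. Slc26a4, the anion exchanger pendrin, had log2 ratios of -1.15 and -1.37, and the ammonia channel Rhbg -1.21 and -1.03. With median centring the medians of the principal and the intercalated list were 0.09 and -0.32, and with the scanner software's ratios 0.29 and -0.24. The principal cell list thus had the higher median of the pair under each of these. No test of the difference was possible with 1 pool per genotype.

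Counts in the other segments stand beside the same 3.21% and 4.55% of all genes, and nothing is read from them. Of 7 distal and connecting tubule genes, 6 thick limb genes and 6 podocyte genes, 0 were at least 1.2-fold apart on both arrays, with medians of 0.11, -0.01 and 0.05. Of 9 proximal tubule genes 1 was higher, Slc3a1 at 0.38 and 0.27, with a median of 0.00. Of 7 measured ureteric tip genes 1 was higher, Wnt7b, a signal made by the duct epithelium, at 0.91 and 0.58. Etv4 stood at 0.52 and 0.24, and Sox9 at -0.34 and -0.14.

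**Figure D4:**
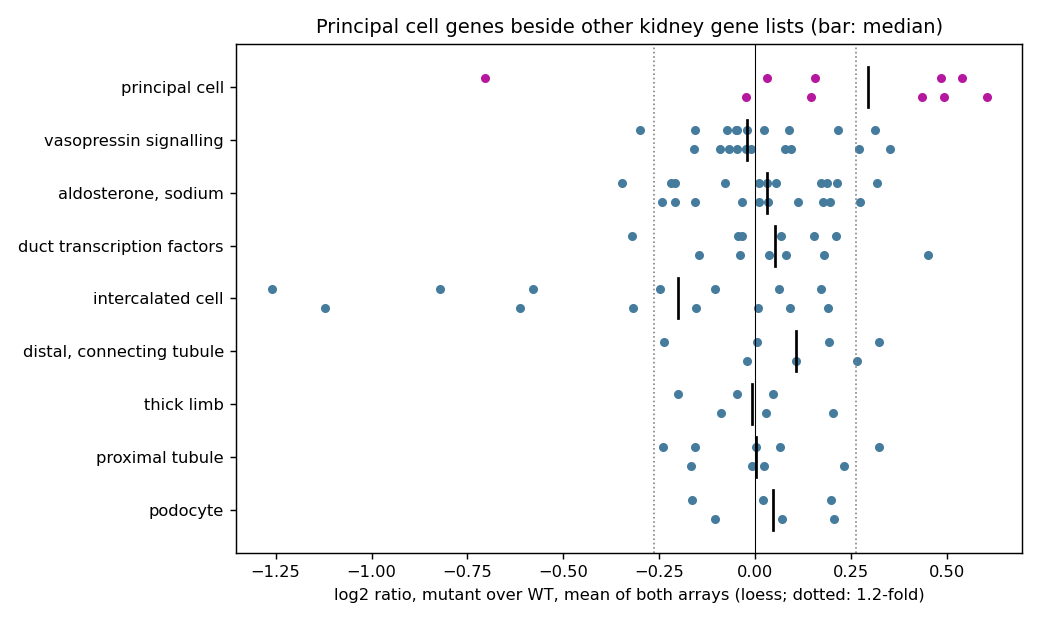
Log2 ratio of mutant over WT after loess, as the mean of both arrays, for each measured gene of the principal cell list and of 8 other kidney lists, with a bar at each median and dotted lines at 1.2-fold. The principal cell median is 0.29 and the intercalated cell median -0.20, and the medians of the other 7 lists lie between -0.02 and 0.11.

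Several of the 10 genes are also used outside the kidney, and markers of those tissues were examined. Their counts stand beside the same 3.21% of all genes higher and 4.55% lower. T cells use Gata3, and of their 5 marker genes 0 were 1.2-fold apart on both arrays. Their median signal was 37.5 in mutant RNA, against 37.7 in WT RNA, and the brightest, Lck, stood at 711 against 650. Of 5 adrenal medulla and sympathetic genes 3 were measured, and the brightest stood at 265 in mutant RNA, against 253 in WT RNA. Lung epithelium uses the sodium channel, and its brightest measured marker, Sftpd, stood at 63.5 in mutant RNA, against 49.7 in WT RNA. Astrocytes, stomach and stratified epithelium use Aqp4 or Aqp3, and 0 of their 11 measured marker genes were 1.2-fold apart on both arrays, with mean log2 ratios between -0.27 and 0.25. Not all were dim. The brightest of each tissue were Aldh1l1 at 7546 in mutant RNA, against 7446 in WT RNA, Atp4a at 219 against 198, and Krt10 at 3090.5 against 3758. The other markers were mostly dimmer. The median signal of the astrocyte list was 31.4 in mutant RNA, against 40.2 in WT RNA. For stomach it was 119 against 114, and for stratified epithelium 296 against 233. Colon uses Hsd11b2 and the sodium channel, and of 5 intestinal markers 1 was higher, Lgals4, and 1 lower, Slc26a3. The brightest intestinal marker, Vil1, stood at 11164 in mutant RNA, against 11283 in WT RNA, while the median of that list was 116 against 111. Neither adrenal cortex (3 measured) nor urothelium (5 measured) had a marker 1.2-fold apart on both arrays. Their brightest were Nr5a1 at 98.8 in mutant RNA, against 70.6 in WT RNA, and Upk3a at 2108 against 2005.5. The median signal of the urothelium list was 480 in mutant RNA, against 466 in WT RNA.

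The pools also differed in genes of other tissues. Counts here stand beside 3.21% of all genes at least 1.2-fold higher on both arrays and 4.55% at least 1.2-fold lower. All 7 oocyte genes were at least 1.2-fold lower in the mutant pool, their probes summing to 347 and 336 in mutant RNA, against 3129.5 and 2912 in WT RNA. Of 5 adipose genes 4 were lower, Ucp1, Cidea, Plin1 and Adipoq, and the list's median log2 ratio was -0.90. Its sums were dominated by Fabp4, which was not among the 4, and came to 117820 and 102510 in mutant RNA, against 133990 and 123760 in WT RNA. Of 5 leukocyte genes Tyrobp was lower, at -0.61 and -0.55, with sums over the list of 23005 and 21337 in mutant RNA, against 27737 and 25157 in WT RNA. Of 4 measured sex-linked genes 3 were higher, all Y-linked, while Xist stood at 0.03. Of 5 pancreas duct genes, which kidney ducts share, Krt19 and Muc1 were higher, at means of 0.38 and 0.33. Whether the sexes or the tissue makeup of the pools have a part in the principal cell values was not tested.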

How the data were processed

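RNA of the PND3 mutant pool and WT pool was measured on 2 dye-exchanged Agilent arrays. Per the file headers, spot, local background and processed signals are intensities, the last background-subtracted and dye-normalized, and the scanner's log10 ratio sets Cy5 over Cy3. Flags for control, outlier, saturated and well-above-background spots are other columns, per the file headers. The authors' deposited value table is on a log2 scale, mutant over WT: its correlation with the scanner ratio was 1 on each array, and each column's median was 0. Agilent Feature Extraction is named in version 8.1 by the submitters' processing notes and in version 9.1.3.1 by the file headers.

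With R 4.3.3 and limma 3.58.1, background was corrected by normexp (offset 50, which draws the ratios of dim probes toward 0), ratios were normalized by loess with control spots at weight 0, and the sign of the array with mutant RNA in Cy3 was turned. Outlier spots (18 and 26 per array) were dropped. No saturation was marked. The share of spots well above background ran from 72.8% to 76.6% over the channels. Of 41174 probes, 22951 were named through their accession in RefSeq and the rest as in the file. A gene was represented by its brightest probe among those that were, on both arrays, well above background for mutant or WT RNA. A gene was counted at 2-fold or 1.2-fold in the same direction on both arrays. The processing was tested on simulated data. A test of the E15.5 arrays was planned and not run for lack of gene names. The principal cell genes, the 26 other gene lists, the limits and the rule for named genes (all members and, from other lists, those past 2-fold or else up to 3 with the largest ratios) were chosen with earlier results of these data known. Lists of other tissues are given by counts and ranges, with single genes named after their values were seen. Of the genes this rule names, 1 is not reported here. Alternatives changed the normalization, background correction, offset, filter, outlier treatment, probe rule and arrays.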

Additional observations from a re-analysis of the deposited data

How the results depend on the processing

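Of 11 alternatives, all gave 0 principal cell genes past 2-fold and 1 at least 1.2-fold lower, Hsd11b2. The count at least 1.2-fold higher was 5 under 10 alternatives and 1 with median centring. Where an array was left out, the limits were applied to the other array alone. Several alternatives could not change these counts. All probes of the 10 genes were well above background and none was an outlier, so the filters and the outlier treatment left them as they were. The value table repeated the scanner software's ratios. The median log2 ratio of the 10 genes was 0.29 with the scanner software's ratios and with the value table and 0.091 with median centring, and with either array left out it was 0.26 to 0.27. These differ from 0.29 by more than the spread between the arrays' medians, which was very small. Median centring leaves a trend of the ratio with brightness in the data, as the medians by brightness decile show. With median centring 8 of the 10 single-gene values moved by more than the SD between arrays. No paired analysis was possible because each genotype at PND3 is 1 pool, and the planned E15.5 fit, its alternatives and its replicate block were not run, since probe sets were not paired with genes. With 1 pool per genotype, differences between pups cannot be separated from those between genotypes, and the number of arrays limits the precision.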
